A study of Mus musculus with 2 samples.

Results

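Granulocyte-monocyte progenitors of the fetal liver were taken here as the cells rich in Mpo and Prtn3 transcripts, and their RNA was compared between Brd9 knockout and control embryos. A cell entered the gate with at least 30 UMIs of Mpo and Prtn3 together, fewer than 30 UMIs of S100a8 and S100a9 together, and fewer than 4 UMIs of Ms4a2, Mcpt8, Gzmb and Fcer1a together. A UMI is a molecular tag that counts 1 captured transcript. Barcodes under 1000 genes, under 2000 UMIs or above 10% mitochondrial UMIs were dropped first. It held 1503 of the 14101 barcodes that passed these filters, 582 of 7001 in the knockout library and 921 of 7100 in the control library.

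Both libraries were made from Lineage- c-Kit+ cells of C57BL/6 fetal livers on embryonic day E14.5, by droplet sequencing of transcript 3' ends. The knockout genotype was CD45.2(+) Vav1-iCre Brd9fl/fl and the control genotype CD45.2(+) Brd9fl/fl, so all embryos carried floxed Brd9 and the control lacked the recombinase. Embryos came from matings of Brd9fl/fl males with Vav1-iCre; Brd9fl/fl females, and the Vav1 regulatory sequence drives the recombinase in blood cells. A library with the recombinase but without floxed Brd9 was not part of the comparison, so an effect of the recombinase and an effect of Brd9 loss cannot be told apart. Each genotype had 1 library, so differences were not checked in replicates and were not tested. All bracketed ranges are 95% intervals that cover counting error only.

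Granulocyte-monocyte progenitors give rise to neutrophils and monocytes. Their granulocytic branch is known for making the proteases and peroxidase of primary (azurophil) granules early, among them myeloperoxidase (Mpo), proteinase 3 (Prtn3), neutrophil elastase (Elane) and cathepsin G (Ctsg). The branch towards monocytes depends on Irf8, and the branch towards neutrophils on Gfi1 and Cebpe. BRD9 carries a bromodomain and belongs to the non-canonical form of the BAF remodelling complex, which moves nucleosomes.

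The gated cells had a median of 32266 UMIs and 5973 genes in the knockout and of 34872 UMIs and 6166 genes in the control, and their UMIs summed to 21907608 and 36381383. Levels below are these sums scaled to a common library total (CPM), and a log2 ratio is knockout over control. By Xist, 54.1% of gated knockout cells and 18.5% of gated control cells were female, so values are also given within each sex. Another 46 knockout and 45 control cells were assigned to neither sex and enter the pooled values only. Of these, 37 and 42 held at least 3 Xist UMIs and at least 3 Y-linked UMIs. How many embryos were pooled was not stated in the sources used. Female and male cells come from different embryos, so a difference between the sexes cannot be told apart from a difference between embryos. Scrublet, a doublet caller, marked 11.5% of gated knockout and 9.77% of gated control cells, against 3.49% and 3.38% of all kept cells. Of the barcodes, 16 occurred in both libraries and 0 of these were in the gate. Brd9 stood at 11.0 CPM in gated knockout cells (9.66 to 12.5) against 29.4 CPM in gated control cells (27.7 to 31.3), a log2 ratio of -1.42 (-1.63 to -1.22). The tags lie at the 3' end and may miss the floxed exons, so this ratio is no measure of how much intact Brd9 RNA was left.

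The gate sets what these cells must contain, and the values that chose them are given as a description. The median cell held 131.5 Mpo and Prtn3 UMIs in the knockout gate and 157 in the control gate. Just inside the limit, 33 knockout and 26 control cells had 30 to 34 of these UMIs, and just outside it 40 and 50 cells had 25 to 29. Of the cells with enough Mpo and Prtn3, 109 of 747 in the knockout and 221 of 1203 in the control were left out by S100a8 and S100a9, which mark later neutrophil-lineage cells. The mast cell and basophil genes left out 57 and 61. Cells with many Mpo and Prtn3 UMIs were a smaller fraction of the knockout gate: 8.08% of its cells (5.99 to 10.6) and 14.9% of the control cells (12.6 to 17.3) had 300 or more.

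The name granulocyte-monocyte progenitor was checked against 10 other markers of that cell. All 10 were higher in gated than in the remaining kept cells of each library. Their summed level was 3174 CPM (knockout) and 3496 CPM (control) in the gate against 622 and 806 CPM outside it. Most of the gate sums was Calr, a protein folding gene of the endoplasmic reticulum, at 1949 CPM (knockout) and 1928 CPM (control). Several of these markers were higher still in cells with 30 or more S100a8 and S100a9 UMIs and the same filters. Elane was at 793 CPM (knockout) and 2785 CPM (control) there, and Ctsg at 1346 and 2390 CPM. Gfi1 and Csf3r were also higher there than in the gate, so such markers do not set the gate apart from those cells. Monocyte-dendritic markers were enriched as well. Their 10 genes summed to 290 CPM (knockout) and 549 CPM (control) in the gate, against 16.9 and 26.6 CPM outside. The 9 mast and basophil markers summed to 308 and 204 CPM, and these UMIs were mostly Cpa3 and Hdc, while Gzmb and Cma1 were at 0 in both libraries and Fcer1a had 5 knockout UMIs and 0 control UMIs. The 7 eosinophil genes summed to 66.9 and 61.9 CPM, and 1 cell held 38.8% of the knockout and 1 cell 29.9% of the control UMIs of Prg2, an eosinophil granule protein. Hepatocyte genes were at 4.15 and 5.77 CPM and macrophage genes at 9.68 and 7.04 CPM. The gate therefore held early granulocytic cells together with cells carrying monocyte, mast cell or eosinophil transcripts.

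The gated cells were a smaller share of the knockout library. Of kept knockout cells 8.31% were gated (7.68 to 8.98), against 12.97% in the control (12.2 to 13.8), a ratio of 0.641 (0.581 to 0.707). Within female cells the shares were 7.70% and 10.6%, a ratio of 0.724 (0.606 to 0.864). Within male cells they were 8.47% and 13.3%, a ratio of 0.638 (0.553 to 0.737). The sexes of the control thus differed in this share too, by a smaller factor than the genotypes did within either sex. The share follows the level of the gate genes, and the sort on c-Kit decides which cells could be counted.

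Most genes stood at similar levels in gated cells of both genotypes. Of the 6505 genes that reached 20 CPM in 1 library or both, 62 had a log2 ratio of 0.5 or more, which is 0.953% of them. Another 70, or 1.08%, had a ratio of -0.5 or less. The median log2 ratio was 0.02, and the 5th and 95th percentiles were -0.20 and 0.26. The largest changes were more often on the low side: 26 genes (0.4%) lay at or below -1 and 8 (0.123%) at or above 1. Within female cells alone 2.3% of genes were past 0.5 and 1.25% past -0.5, and within male cells alone 1.76% and 1.66%. Past 0.5 in both sexes were 52 genes (0.799%), and past -0.5 in both sexes another 52.

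**Figure D1:**
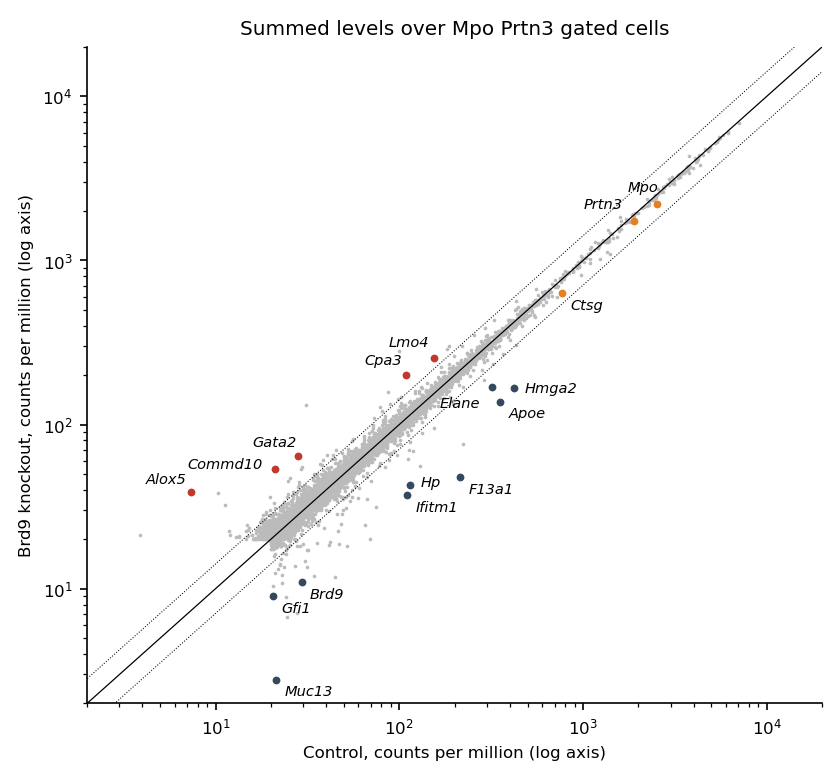
Level of each gene over gated cells in the control (x axis) and the knockout (y axis), both in CPM on log axes; each gray point is 1 gene that reached 20 CPM, the solid line marks equal levels and the dotted lines a log2 ratio of 0.5 either way. Named genes past the fold are red where higher and dark blue where lower in the knockout, and orange marks Mpo, Prtn3 and Ctsg, which lie between the dotted lines; F13a1, Muc13 and Hmga2 lie far below and Alox5 and Gata2 above.

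The genes of the primary granule list did not move as a block. Mpo, the granule peroxidase, was at 2195 against 2534 CPM (knockout first, here and below), and Prtn3 at 1739 and 1892 CPM, both chosen by the gate. The list also held genes that are not granule proteases, among them haptoglobin and inhibitors of proteases. Its values are therefore no measure of primary granule contents alone. Of the 12 other measured genes of the list, 10 were below 0 and 2 above. Of these 12, 4 were past -0.5 and 0 past 0.5, against 1.08% and 0.953% of all genes. Their median was -0.40, against 0.02 over all genes. The median was -0.36 in female and -0.28 in male cells.

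Elane (ENSMUSG00000020125, chromosome 10, 79886247 to 79888215, mm10), the serine protease elastase, had the largest difference of the listed granule proteases that the gate did not use. It stood at 169 CPM in the knockout (164 to 174) against 319 CPM in the control (314 to 325), a log2 ratio of -0.92 (-0.97 to -0.87). Within sexes the levels were 175 against 260 CPM in female and 198 against 352 CPM in male cells, ratios of -0.57 and -0.83. Female and male control cells themselves differed in Elane by -0.44, so the different sex mix of the libraries enters the pooled value. Ctsg (chromosome 14, 56099881 to 56102574), the protease cathepsin G, was at 633 against 770 CPM, a ratio of -0.28 (-0.31 to -0.25), short of the fold. Elane thus stood further from the control than Ctsg did.

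Other genes of the list lay on either side of the fold. Hp, haptoglobin, which binds free hemoglobin, was at 42.9 against 114 CPM, a ratio of -1.41 (-1.51 to -1.31). Hp gave -1.40 in female and -1.26 in male cells. Serpinb1a, an inhibitor of the granule proteases, was at 188 against 288 CPM with a ratio of -0.61, and Cst7, a cystatin that inhibits lysosomal proteases, at 40.9 against 60.1 CPM with a ratio of -0.56. Ms4a3, a membrane protein of granulocyte-monocyte progenitors, gave -0.37, Ctsc, the protease that activates the granule proteases, -0.44, and Srgn, the proteoglycan that holds granule proteins, -0.27. Lyz2, lysozyme, gave 0.02 and Cd63, a granule membrane protein, 0.40. Thus Elane, Hp and the inhibitors Serpinb1a and Cst7 were past the fold, and the other members of the list were not. Of the genes past the fold, only Elane encodes a granule protease.

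Prtn3 and Elane lie next to each other on chromosome 10, with RefSeq transcript starts 6645 bases apart. Their ratios were -0.12 and -0.92, but Prtn3 and Mpo were used by the gate, so this contrast is a description only. The 200 bases before the RefSeq start of Mpo, Prtn3, Elane and Ctsg are shown because these 4 genes are transcribed together in these cells. Capitals mark the letters AGGAAG, a core of PU.1 sites, and CAACNG, a core of MYB sites that may also begin with T, on either strand. Sequences are those of RefSeq on GRCm38.p6, the assembly behind mm10, and the RefSeq starts of Mpo, Prtn3 and Elane lie inside the longer GENCODE gene.
Mpo, chr11:87793584-87793783, plus strand: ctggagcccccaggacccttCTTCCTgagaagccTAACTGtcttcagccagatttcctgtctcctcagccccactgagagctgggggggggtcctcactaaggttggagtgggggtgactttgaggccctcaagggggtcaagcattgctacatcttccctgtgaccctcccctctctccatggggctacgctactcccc
Prtn3, chr10:79879467-79879666, plus strand: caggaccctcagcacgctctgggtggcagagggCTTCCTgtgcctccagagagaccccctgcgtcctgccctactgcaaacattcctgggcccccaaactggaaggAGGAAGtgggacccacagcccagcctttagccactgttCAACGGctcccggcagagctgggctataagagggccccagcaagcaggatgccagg
Elane, chr10:79886112-79886311, plus strand: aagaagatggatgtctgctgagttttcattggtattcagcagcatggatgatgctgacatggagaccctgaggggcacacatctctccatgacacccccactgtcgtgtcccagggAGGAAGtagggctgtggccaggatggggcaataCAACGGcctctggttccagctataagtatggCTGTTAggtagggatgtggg
Ctsg, chr14:56102575-56102774, minus strand: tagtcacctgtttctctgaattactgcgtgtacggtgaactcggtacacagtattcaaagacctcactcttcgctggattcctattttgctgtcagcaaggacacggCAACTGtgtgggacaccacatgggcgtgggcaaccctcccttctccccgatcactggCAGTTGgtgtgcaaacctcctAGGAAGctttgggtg

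All 4 windows held both kinds of letters. Prtn3 and Elane each held AGGAAG and CAACGG close together on the plus strand, 94 and 56 bases before the start in Prtn3 and 84 and 51 bases in Elane. Of 32851 mouse promoters in windows of the same length, 24.7% held AGGAAG and 36.3% a MYB core. None of the 4 held TTGCNNAA, a C/EBP core found in 7.47% of promoters. None held the core of GATA factor sites either, which was searched as AGATAA and found in 7.80%. These matches describe the letters only.

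The Elane ratio differed with the Mpo and Prtn3 content of the cell. Elane in the control ran from 6.89 CPM in cells with 30 to 99 Mpo and Prtn3 UMIs, through 271 CPM at 100 or more but under 300, to 991 CPM at 300 or more. In the knockout it ran from 16.6 through 206 to 503 CPM, so the log2 ratio went from 1.27 (0.85 to 1.70) through -0.40 (-0.47 to -0.33) to -0.98 (-1.07 to -0.89). These bins were cut on the raw UMIs that the gate used, so all values by bin are a description only. They also sort cells by depth, with a median of 29711.5 (knockout) and 31489 UMIs (control) in the lowest bin. In the highest bin the medians were 41660 and 41325 UMIs. The lowest bin rested on 133 knockout and 73 control UMIs of Elane, and 10 cells held 55.6% of the knockout ones. In the highest bin 34 of 47 knockout and 118 of 137 control cells had at least 10 Elane UMIs, 72.3% (57.4 to 84.4) and 86.1% (79.2 to 91.4).

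Ctsg showed a weaker form of the same pattern and Fcgr3, an Fc receptor gene of myeloid cells, another one. The log2 ratio of Ctsg over the bins was 0.24, 0.07 and -0.45. That of Fcgr3 was 1.30, 0.64 and 0.25, at 86.0 against 34.8 CPM in the lowest bin and 206 against 174 CPM in the highest. In the low bin both genes were therefore higher in the knockout. Weighting the knockout bins to the control mix gave a median of -0.30 for the primary granule list.

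**Figure D2:**
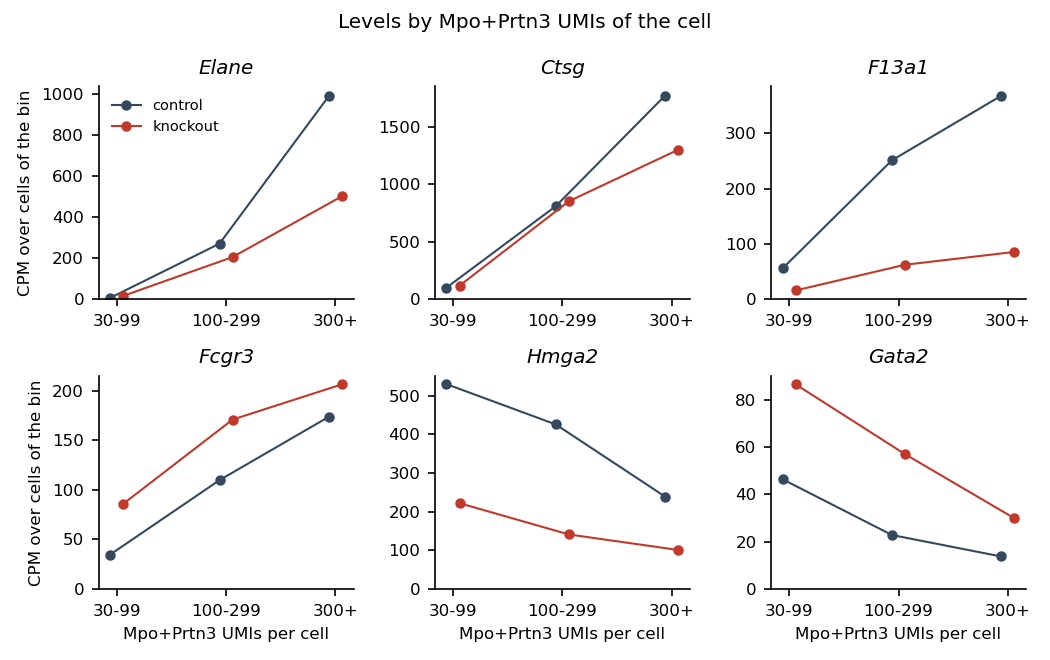
Level over the cells of each bin (y axis, CPM, from 0) of Elane, Ctsg, F13a1, Fcgr3, Hmga2 and Gata2, by the Mpo and Prtn3 UMIs of the cell (x axis), in control (dark blue) and knockout (red); each point is 1 library and no error is drawn. Elane separates at 300 UMIs or more, at 991 CPM in the control and 503 CPM in the knockout, while F13a1 and Hmga2 are lower and Gata2 and Fcgr3 higher in the knockout in all 3 bins.

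The knockout had fewer cells with many Elane UMIs, while cells with any were about as common. To compare at equal depth, each gated cell was thinned to 20940 UMIs, which left out 41 knockout and 34 control cells. An Elane UMI was then expected in 52.5% of knockout cells (48.2 to 56.8) against 54.8% of control cells (51.4 to 58.1), a difference not detectable at this depth. Without thinning the shares were 58.9% and 61.7%. At least 10 Elane UMIs were expected in 13.8% and 22.2% of cells, and at least 20 in 3.92% (2.42 to 5.87) and 12.0% (9.89 to 14.3). Among erythroid cells, which should lack Elane, 1.08% of knockout cells against 4.29% of control cells had a UMI at the same thinned depth, with median depths before thinning of 41399 and 43018 UMIs against 33419 and 35376 in the gate.

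The 5 genes below followed Elane most closely across single control cells by Spearman correlation at equal depth, over 887 control and 541 knockout cells, given as a description. These were Ms4a3 at 0.73, Plac8 at 0.73, Ctsg at 0.73, Cebpe at 0.69 and Hp at 0.67, and the values in knockout cells were 0.64, 0.60, 0.67, 0.63 and 0.50. Their own log2 ratios were -0.37, -0.26, -0.28, 0.17 and -1.41, so genes that ran with Elane from cell to cell differed in their ratio.

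**Figure D3:**
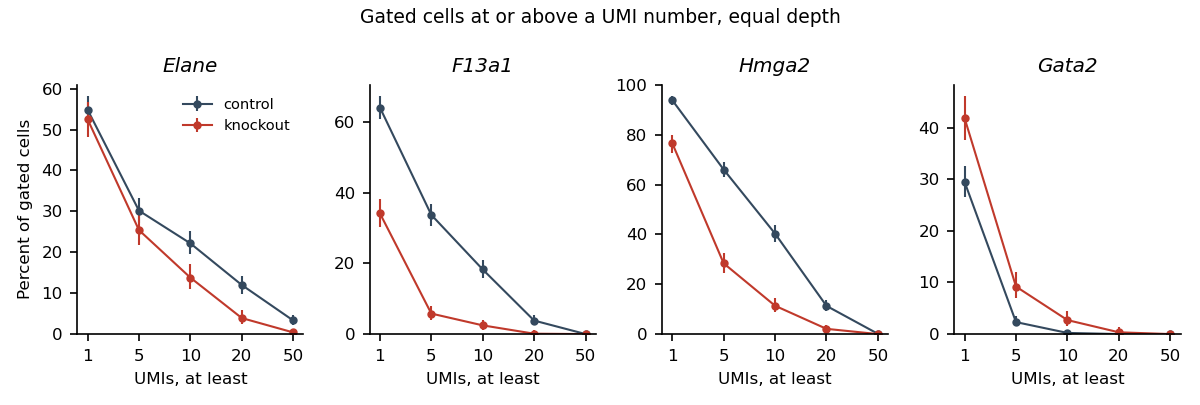
Expected percent of gated cells (y axis) with at least the given number of UMIs (x axis) of Elane, F13a1, Hmga2 and Gata2 after thinning each cell to 20940 UMIs, in control (dark blue) and knockout (red); bars are 95% exact binomial intervals for counting error. The Elane curves start together near 52.5% and 54.8% and part at higher numbers, whereas those of F13a1, Hmga2 and Gata2 are apart from 1 UMI on.

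Monocyte lineage genes lay on both sides of the control. F13a1 (ENSMUSG00000039109, chromosome 13, 36867178 to 37050244), the coagulation factor subunit of monocytes, had the lowest ratio of all nameable genes that reached 50 CPM. It stood at 47.9 CPM in the knockout (45.0 to 50.9) against 214 CPM in the control (210 to 219), a log2 ratio of -2.16 (-2.26 to -2.07). The ratio was -1.67 in female cells, at 66.5 against 211 CPM, and -2.79 in male cells, at 32.7 against 227 CPM. F13a1 was lower in all 3 bins of Mpo and Prtn3, at -1.81, -2.01 and -2.10. At equal depth, at least 10 F13a1 UMIs were expected in 2.47% of knockout cells against 18.3% of control cells, and 1 UMI in 34.2% and 64.2%, against 0.239% and 0.973% of erythroid cells.

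Ccr2, the chemokine receptor of inflammatory monocytes, was at 7.08 against 27.7 CPM (-1.97, -2.22 to -1.72), and Ly86, a partner of a Toll-like receptor family member, at 23.5 against 38.7 CPM (-0.72, -0.87 to -0.58). Ly86 differed between the sexes, at -1.03 in female and -0.29 in male cells. Csf1r, the M-CSF receptor, gave -0.26, Ms4a6c -0.42 and the signalling adaptor Tyrobp -0.08. Fcgr3 was on the other side at 144 against 99.03 CPM (0.54, 0.47 to 0.61), and Fcer1g, the chain it signals through, gave 0.44. Of the 10 measured members, 3 were past -0.5 and 1 past 0.5, against 1.08% and 0.953% of all genes, with a median of -0.19. Ccr2 passed the 20 CPM minimum only through the control, and with a minimum on the mean of both libraries 2 of 9 were past -0.5.

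Counts of myeloid transcription factors past the fold were near what a list of this size would hold. Of 21 measured, 1 was past -0.5 and 0 past 0.5, and the median was -0.01. Over all genes 1.08% and 0.953% were past these limits, so few or none of 21 would be. With a minimum on the mean of both libraries, 0 of 20 were past the fold. The gene past -0.5 was Gfi1, a repressor needed for neutrophil formation. Gfi1 stood at 9.04 CPM in the knockout (7.82 to 10.4) against 20.6 CPM in the control (19.2 to 22.1), a ratio of -1.19 (-1.42 to -0.96). It gave -1.13 in female and -1.25 in male cells, and it met the 20 CPM minimum only in the control. Gfi1b, its erythroid and megakaryocyte relative, stood at 0.48, with 0.81 in female and -0.07 in male cells.

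Spi1, which encodes PU.1, was at 233 against 254 CPM (-0.12), and Irf8, the factor of the monocyte branch, at 89.8 against 110 CPM (-0.29). Irf8 gave -0.27 in female and -0.06 in male cells. Cebpa, which drives entry into the granulocyte-monocyte lineage, was at 56.6 against 46.8 CPM (0.28), Cebpe, of the granulocytic branch, at 85.8 against 76.2 CPM (0.17), and Runx1 at 562 against 434 CPM (0.37). Cebpe stood at 0.04 in female and 0.49 in male cells. The low Elane and F13a1 levels were seen beside Cebpa, Spi1 and Irf8 levels within the fold and a Gfi1 level past -0.5. A link between these levels was not tested.

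Among stem and progenitor regulators, Gata2 stood out. Gata2 (ENSMUSG00000015053, chromosome 6, 88193891 to 88207032), a zinc finger factor of stem, mast cell and early erythroid-megakaryocyte programmes, was at 64.8 CPM in the knockout (61.4 to 68.2) against 28.1 CPM in the control (26.4 to 29.9), a log2 ratio of 1.21 (1.09 to 1.32). It gave 1.31 in female cells, at 62.8 against 25.3 CPM, and 1.51 in male cells, at 78.0 against 27.3 CPM. In the bins of Mpo and Prtn3, a description only, it gave 0.90, 1.32 and 1.12. Gata2 declined along these bins in both libraries. At equal depth at least 5 Gata2 UMIs were expected in 9.21% of knockout cells (6.94 to 12.0) against 2.32% of control cells (1.47 to 3.60).

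Of the 19 measured stem and progenitor regulators, 5 were past 0.5 and 1 past -0.5, against 0.953% and 1.08% of all genes, with a median of 0.09. The 5 were Gata2, Ikzf2 (0.67), a Helios zinc finger factor, Pbx3 (0.59), a homeodomain cofactor, and Zfpm1 and Cbfa2t3 (both 0.53), which encode the GATA cofactor FOG1 and the corepressor ETO2. Ikzf2 was at 289 against 182 CPM and gave 0.69 in female and 0.76 in male cells. Pbx3 gave 0.79 and 0.32, and Zfpm1 0.66 and -0.01, female first, so Zfpm1 stood near the control in male cells. Sox4, an HMG-box factor of lymphoid and myeloid progenitors, was the member on the low side, at 69.0 against 119 CPM (-0.79, -0.88 to -0.71). Meis1, a HOX cofactor, gave 0.26 and stayed within the fold.

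Of 3 measured mast cell and basophil genes, 1 was past 0.5, against 0.953% of all genes. Cpa3, a mast cell carboxypeptidase also transcribed in early progenitors, was at 200 against 109 CPM (0.88, 0.82 to 0.94). The 9 mast and basophil markers summed to 308 against 204 CPM, a sum that is mostly Cpa3 and Hdc and that includes the 4 genes the gate limits. Hdc, histidine decarboxylase, was at 95.1 against 85.5 CPM (0.15), and Il1rl1, the receptor of interleukin 33, at 4.47 against 4.398 CPM. The higher sum went with Cpa3 more than with the other genes. At low levels Mcpt8 (5.16 against 3.19 CPM), Ms4a2 (3.20 against 2.09 CPM) and Prss34 (0.456 against 0.220 CPM) were also higher in the knockout. Mcpt8 and Ms4a2 are among the genes the gate limits. Srgn, which mast cell granules also use and which is not part of that sum, gave -0.27. Cells with at least 3 Cpa3 UMIs made up 43.5% of gated knockout (39.4 to 47.6) and 31.8% of gated control cells (28.8 to 34.9).

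The gated cells were split by Cpa3, a choice made after seeing the data. Gata2 gave 0.71 (0.47 to 0.95) in cells with 0 to 2 Cpa3 UMIs and 0.95 (0.81 to 1.08) in cells with 3 or more. Auts2 and Lmo4, which gave 0.86 and 0.72 over all gated cells, stood at 0.11 (-0.02 to 0.25) and 0.14 (0.04 to 0.24) in the cells with little Cpa3 and gave 0.76 and 0.61 in the rest. Elane, at -0.83 and -0.75, and F13a1, at -1.95 and -2.04, were past -0.5 on both sides of the split. The part of mast or basophil precursors in the pooled Auts2 and Lmo4 values was not tested.

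Adhesion and surface genes, a list that also held the leukotriene genes Alox5 and Alox5ap, lay on both sides of the control. Of 22 measured adhesion and surface genes, 5 were past 0.5 and 4 past -0.5, against 0.953% and 1.08% of all genes, with a median of -0.03. With a minimum on the mean of both libraries these counts were 4 and 2 of 19. Muc13, a transmembrane mucin, was at 2.78 CPM in the knockout (2.13 to 3.58) against 21.3 CPM in the control (19.9 to 22.9), a ratio of -2.94 (-3.34 to -2.56). Cd27, a TNF receptor family member of stem and lymphoid-primed progenitors, was at 6.76 against 24.5 CPM (-1.86). Both were lower in each sex, at -2.52 and -3.62 for Muc13 and -1.69 and -2.37 for Cd27, female first. Muc13 and Cd27 met the 20 CPM minimum only in the control, and neither passed a minimum on the mean.

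Alox5, the 5-lipoxygenase that starts leukotriene synthesis, had the highest ratio of all listed genes. It was at 38.6 CPM in the knockout (36.1 to 41.3) against 7.39 CPM in the control (6.54 to 8.33), a 5.22-fold higher level and a log2 ratio of 2.38 (2.19 to 2.59). It gave 2.34 in female and 2.74 in male cells, and 2.06 and 1.99 in cells with little and with more Cpa3. By Mpo and Prtn3 bins it gave 2.58, 2.26 and 0.27, so the difference was small in the richest bin. Alox5ap, its activating partner, gave 0.32 and Lta4h, which acts on its product, -0.15, both within the fold. On the high side of the surface list were also Itgb2 and Itgal (0.92 and 0.53), the chains of the leukocyte integrin LFA-1, and Clec12a (0.58), a myeloid lectin receptor. Alox5 and Itgb2 met the 20 CPM minimum only in the knockout, and Itgb2, at 22.3 against 11.8 CPM, did not pass a minimum on the mean.

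Of 18 measured cytokine receptors, 1 was past 0.5 and 3 past -0.5, against 0.953% and 1.08% of all genes. With a minimum on the mean of both libraries these counts were 1 and 2 of 17. Csf2rb, the shared chain of the receptors for GM-CSF and interleukin 3, was at 56.3 against 37.9 CPM (0.57, 0.46 to 0.68), and its partner Csf2ra gave 0.48. Ifngr1, of the interferon gamma receptor, was at 70.0 against 113 CPM (-0.69), and Flt3, of multipotent and lymphoid-primed progenitors, at 18.1 against 28.7 CPM (-0.66). Kit, on which the cells were sorted, gave -0.26 and Csf3r, the G-CSF receptor, -0.37. The 8 lymphoid-primed markers summed to 72.3 against 114 CPM, with Rag1 at 0 in both libraries and Dntt at 0 in the knockout, and the part of lymphoid-primed cells in the Flt3 and Cd27 values was not tested.

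Several of the lowest genes belong to none of these myeloid groups. Hmga2 (ENSMUSG00000056758, chromosome 10, 120361275 to 120476469), a chromatin protein of fetal progenitors, was at 166 CPM in the knockout (161 to 172) against 423 CPM in the control (417 to 430), a ratio of -1.35 (-1.40 to -1.30). It gave -1.21 in female and -1.45 in male cells, and between -1.24 and -1.59 in the 3 bins. At equal depth, at least 10 Hmga2 UMIs were expected in 11.4% of knockout cells against 40.3% of control cells. Igf2bp2, an RNA-binding protein of fetal cells, was also past the fold at 24.7 against 48.2 CPM (-0.96), a gene picked after its value was seen.

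Apoe, the lipid carrier apolipoprotein E, was at 138 against 353 CPM (-1.36), and its neighbour Apoc1 at 20.2 against 69.4 CPM (-1.78). Ifitm1 and Ifitm3, membrane proteins that restrict virus entry, were at 37.1 against 110 CPM (-1.57) and 55.8 against 130 CPM (-1.22), while Ifitm2 gave -0.47. Ccl9, a chemokine, gave -1.25, Adgrl4, an adhesion receptor, -0.92, and Pdcd4, an inhibitor of translation, -0.86. These 7 genes past the fold were lower in female and in male cells. The cell cycle kinase Cdk6 gave -0.51 and the survival gene Bcl2 -0.76.

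Commd10, a member of the COMMD family of trafficking proteins, had the highest ratio of the genes with at least 50 CPM that could be named, at 53.4 CPM in the knockout (50.3 to 56.5) against 20.9 CPM in the control (19.5 to 22.5), a log2 ratio of 1.35 (1.22 to 1.48). It gave 1.46 in female and 1.41 in male cells and between 1.28 and 1.42 in the bins. Slc16a3, the lactate exporter MCT4, was at 55.4 against 29.7 CPM (0.90), and Morrbid, a long noncoding RNA of short-lived myeloid cells, at 53.3 against 29.2 CPM (0.87). Prkca, a protein kinase C, gave 0.70, Inpp4b, a phosphoinositide phosphatase, 0.66, Oaf 0.64 and Zbtb16, the zinc finger factor PLZF, 0.60. Pold2, a DNA polymerase delta subunit, gave 0.63 over all gated cells but 0.02 in female and 0.84 in male cells, and female and male control cells differed in it by 0.62.

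Bicra and Bicral, alternative subunits of the non-canonical BAF complex, stood above the control. Bicral was at 44.9 against 28.3 CPM (0.67, 0.54 to 0.79) and Bicra at 34.6 against 28.2 CPM (0.29, 0.16 to 0.43), within the fold. Of the 19 other measured BAF and PBAF subunits, some of them shared with the non-canonical complex, 0 were past the fold, with a median of -0.02. With 0.953% and 1.08% of all genes past the fold, 0 of 19 is near the share over all genes. Smarcc1, a core scaffold subunit, gave the lowest value, -0.28, and Bcl7b the highest, 0.24.

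Genes of growth and secretion are given next, and at the shares over all genes (0.953% and 1.08%) few or none of lists of this size would be past the fold. Of 30 S-phase genes only Pold2 was past the fold, and their median was 0.04. All 30 genes of G2 and mitosis were within the fold, although 29 lay above 0, with a median of 0.12. The highest were Ccnb1 (0.27), a mitotic cyclin, and Plk1, a mitotic kinase, and Mki67, a marker of cycling cells (both 0.23). Mki67 gave 0.40 in female and 0.02 in male cells. The 19 genes of protein folding and stress in the endoplasmic reticulum, which secretory progenitors use heavily, had a median of 0.02 and 0 past the fold. Of 16 glycolysis genes, Slc16a3 alone was past the fold, with a median of 0.11.

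**Figure D4:**
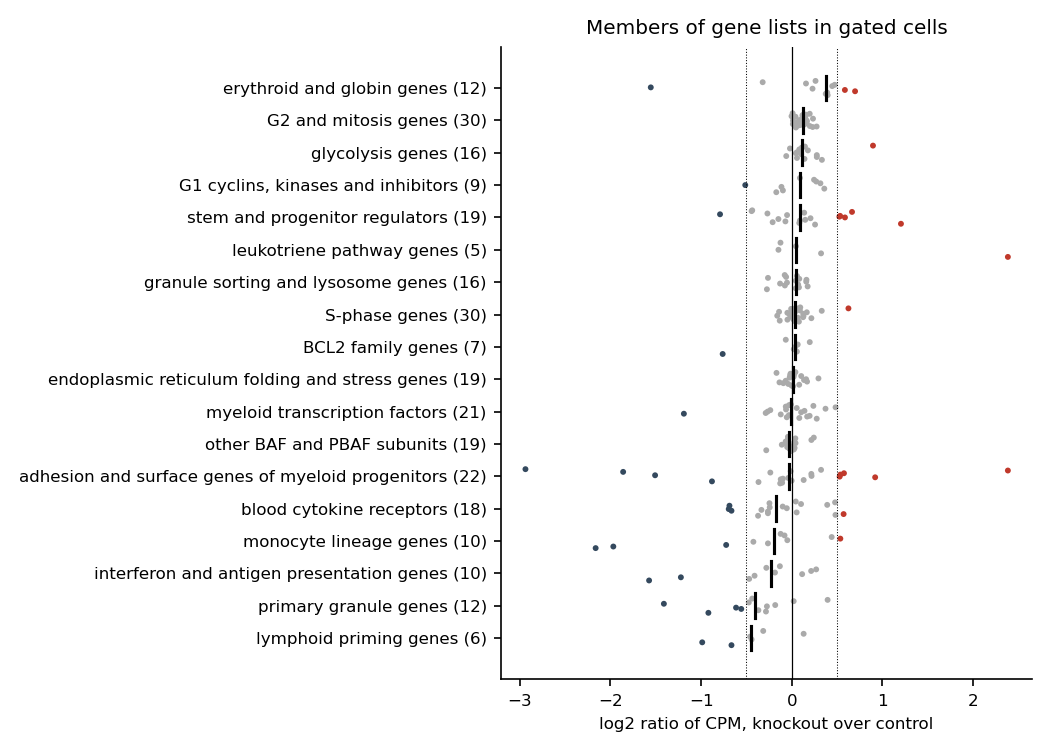
Log2 ratio of CPM, knockout over control (x axis), of the measured members of 18 gene lists over gated cells; each point is 1 gene, black bars are list medians, red points are past 0.5 and dark blue past -0.5, numbers in brackets count the members that reached 20 CPM, and dotted lines mark 0.5 and -0.5. The primary granule list leans left with a median of -0.40. The lists of G2 and mitosis, S-phase and other BAF genes lie within the dotted lines except Pold2, and the surface list holds both Muc13 and Alox5.

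Many ratios differed in size between the sexes, and few in sign. Of 108 named gene values, 58 lay outside the counting interval of the pooled value in female cells alone and 77 in male cells alone, and 2 more turned in sign in male cells. Among 6309 autosomal genes, female and male control cells differed past the fold with 6 higher (0.0951%) and 55 lower (0.872%) in female cells. Of the 56 autosomal nameable genes higher in the knockout past the fold, 51 had the same sign in both sexes and 40 were past the fold in both. Of the 60 on the low side these numbers were 59 and 47. Erythroid and globin genes departed from this: their list median was 0.38 over all gated cells, 0.97 in female and -0.60 in male cells. Alpha globin Hba-a1 was at 302 against 186 CPM with 2.04 in female and -0.25 in male cells. The beta globin Hbb-bt went the other way, at 76.1 against 224 CPM (-1.55, -1.63 to -1.48), with -0.74 in female and -2.80 in male cells. Its levels were 38.8 against 64.6 CPM in female and 27.4 against 190 CPM in male cells. Both pooled levels were above these, so cells assigned to neither sex raised them. In the gate the 10 erythroid markers summed to 969 and 882 CPM, outside it to 4619 and 5299 CPM, and the part of free erythroid RNA or doublets in the globin values was not tested.

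**Figure D5:**
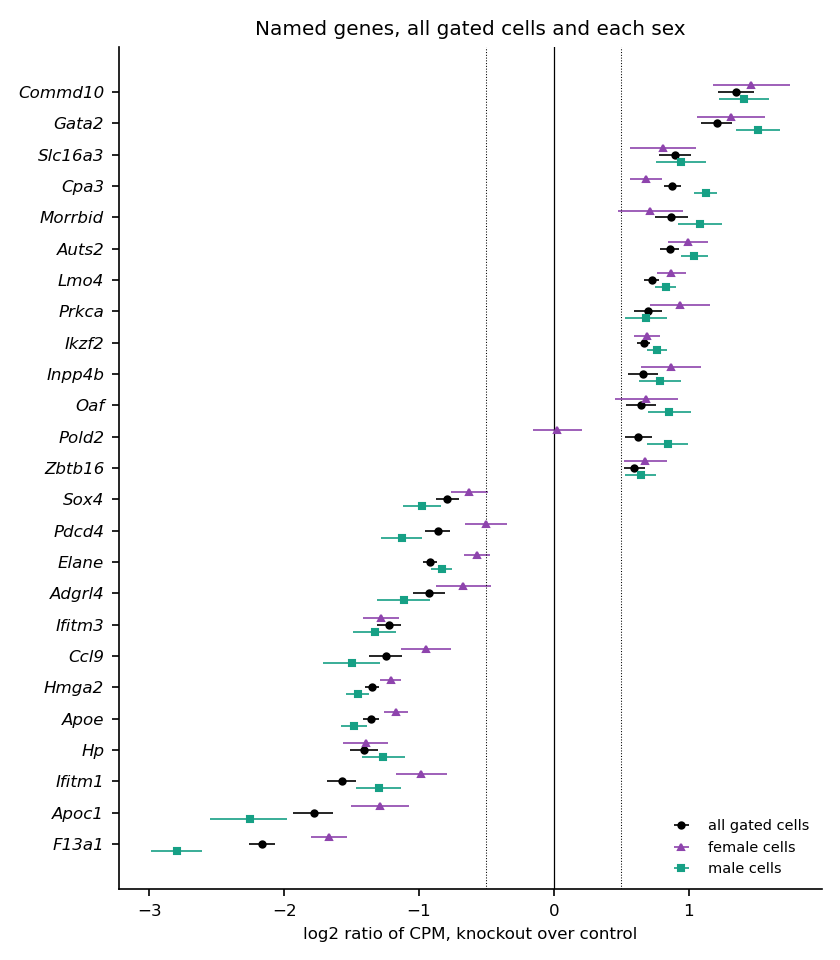
Log2 ratio of CPM, knockout over control (x axis), for 12 of the lowest and 13 of the highest named genes, globins left out, over all gated cells (black circles), female cells (purple triangles) and male cells (green squares); bars are 95% intervals for counting error and dotted lines mark 0.5 and -0.5. Genes lie on the same side of 0 in both sexes, and Pold2 is at 0.02 in female and 0.84 in male cells.

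Some of these differences were larger in the gate than over all remaining kept cells, and others were smaller. The log2 ratio of Hmga2 was -1.35 in gated cells and -0.17 in the remaining kept cells, a difference of -1.17 (-1.24 to -1.11), and that of Ifitm3 was -1.22 and -0.26, a difference of -0.97 (-1.08 to -0.85). Bcl2 gave -0.76 in the gate and 0.17 outside it. Alox5 gave 2.38 against 1.07, a difference of 1.31 (1.08 to 1.55), and Gata2 1.21 against 0.63, a difference of 0.57 (0.44 to 0.70). F13a1 gave -2.16 and -2.03, a difference of -0.14 (-0.34 to 0.07) that its counts do not separate from 0. These intervals cover counting error only, and cells outside the gate were mostly of other lineages.

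The nearest cells on the granulocytic path were those with 30 or more S100a8 and S100a9 UMIs and the same filters, 111 in the knockout and 224 in the control. Elane gave -1.81 there against -0.92 in the Mpo and Prtn3 gate, a difference of 0.89 (0.82 to 0.97, gate minus later cells), and Ctsg -0.83 against -0.28, a difference of 0.54 (0.49 to 0.60). F13a1 gave -2.55 and Hp -1.58 in the later cells. Hmga2 gave -1.18 there, a difference of -0.17 (-0.46 to 0.13) from the gate that its counts do not separate from 0. Irf8 stood at 1.10 there, 38.6 against 18.0 CPM, and at -0.29 in the gate, a difference of -1.39 (-1.75 to -1.03). Gata2 gave 1.02, a difference of 0.19 (-0.39 to 0.77), and Alox5 1.22, a difference of 1.16 (0.72 to 1.60). The ratios of the granule proteases were thus lower in the later cells, Irf8 differed in sign, and Gata2 and Alox5 were above the control in both sets of cells.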

How the data were processed

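The authors deposited whole-number UMI counts per gene and barcode, with no normalization, made with Cell Ranger 7.2.0 on mm10 per the submitters' processing notes. Whether intronic reads entered the counts is not known here. The chemistry was 10x Genomics 3' v3.1 per the labels' protocols. Of 32285 feature IDs, 32158 matched GENCODE M21, which gave coordinates.

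Counts of gated cells were summed per library and divided by their total (CPM). The interval of a log2 ratio is the exact conditional 95% interval for 2 Poisson counts, and shares have exact Clopper-Pearson intervals. A gene was past the fold at a log2 ratio of 0.5 or more, or -0.5 or less, with at least 20 CPM in a library. Depth limits low genes most, and each value carries its interval. The ratio calculation was tested on simulated data. With 1 library per genotype, no test was made.

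Named genes were the 15 highest and 15 lowest with at least 50 CPM, leaving out gate, sex-linked, ribosomal and predicted genes and those with over 20% of UMIs in 1 cell, plus up to 4 per gene list, some of which are not reported here; further list members are named to fill out a pathway. Female cells had at least 3 Xist UMIs and at most 1 Y-linked UMI, male cells at most 1 Xist UMI. Erythroid cells had at least 20 UMIs of 4 erythroid genes, Klf1 and Rhag among them. Shares at equal depth are expected values over all ways of thinning, chosen after random draws were seen to differ. Doublets were marked with Scrublet in scanpy 1.11.5 and kept. Members and lists were chosen with earlier results of these data known. Alternatives were other gate limits, filters, scalings and cell subsets. Python 3.11.15, numpy 2.4.6, scipy 1.17.1 and pandas 2.3.3 were used.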

Additional observations from a re-analysis of the deposited data

Results flagged for a closer look

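For 7 genes the knockout differed from the control in opposite directions in female and male gated cells, and these differences between sexes were not tested. The alpha globin genes gave log2 ratios of 2.04 in female and -0.25 in male cells for Hba-a1, and of 1.51 and -0.23 for Hba-a2. The beta globin gene Hbb-bs gave 1.16 and -0.36, and Rhag, of the erythrocyte Rh complex, 1.36 and -0.81. Prg3, an eosinophil granule protein, gave -1.21 in female and 0.43 in male cells. Stfa1, a stefin protease inhibitor, gave -0.24 and 0.78. Cyba, a subunit of the phagocyte oxidase, gave -0.10 and 0.19.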

How the results depend on the processing

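No paired analysis was possible because each genotype had 1 library, and for the same reason no replicate could be left out. The share ratio of 0.641 was 0.724 in female cells alone, and over the other gate limits and cell filters it lay between 0.599, with 0 UMIs of the mast gate genes (added after seeing the data), and 0.678, with at least 15 Mpo and Prtn3 UMIs. Genes past 0.5 numbered 62 and past -0.5 70. They numbered 151 on the high side in female cells alone, 115 and 108 in male cells alone, 26 and 32 with a minimum of 50 CPM, 182 and 166 with a minimum of 5 CPM, and 8 and 26 with a fold of 1. Without Scrublet doublets they were 85 and 72. The median of -0.40 of the primary granule list was -0.28 in male cells alone and -0.30 with knockout cells reweighted to the control mix of Mpo and Prtn3 bins. Among 108 gene values recomputed under each setting, Hba-a1 (-0.25) and Hba-a2 (-0.23) changed sign from a value past the fold, in male cells alone. Zfpm1, outside that set, was -0.01 in male cells. The cause of these changes was not tested.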

Other observations

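Of 6 measured lymphoid priming genes, 0 were past 0.5 and 2 past -0.5, against 0.953% and 1.08% of all genes, with a median of -0.45. With the minimum on the mean of both libraries, 1 of 5 was past -0.5, since Ighm reached 20 CPM in the control alone. Hdac9, a histone deacetylase, lay above the control at 0.13 (0.05 to 0.21), and Ighm, the immunoglobulin mu chain, was at 10.3 against 20.4 CPM (-0.99). Il7r, the interleukin 7 receptor, had 19 knockout and 136 control UMIs, and Rag2, of the recombinase for antigen receptors, 3 and 51. Of 10 interferon and antigen presentation genes, Ifitm1 and Ifitm3 were past -0.5 and 0 past 0.5, beside the same shares of all genes, with a median of -0.23.

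Genes past the fold lay near each other in some cases. Of 119 such genes, 10 (8.40%) had another within 100000 bases, against 159 of the 6140 other measured genes (2.59%), with no test made. The 5 pairs were Fam129a with Edem3 (1.52 and 0.61), Mndal with Ifi203 (-1.05 and -1.33), Apoc1 with Apoe (-1.78 and -1.36), Ifitm1 with Ifitm3 (-1.57 and -1.22) and Hba-a1 with Hba-a2 (0.70 and 0.59). Mndal and Ifi203 overlap, and close copies such as the alpha globin genes can share reads, so these pairs are uncertain.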
